A study of Mus musculus with 12 samples.

Results

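Each of 12846 genes was described by a difference of log2 changes. From the change in hepatocytes next to liver tumours (peritumoral minus untreated) was subtracted the change in livers 48 h after thioacetamide (TAA, a liver toxin; 48 h minus TAA control). The genes were those of 41128 in the count table with 10 or more counts in at least 2 libraries of each experiment, a rule that uses levels and not their changes. A further 1302 genes passed in the hepatocyte experiment only, 281 in the liver experiment only and 26699 in neither. A positive difference means that a gene rose more, or fell less, beside tumours than after the toxin.

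The study's title concerns YAP and TAZ, effectors of the Hippo growth-control pathway, around liver tumours. The untreated hepatocytes (3 libraries) and peritumoral hepatocytes (3 libraries) came from a line labelled Lats1tm1.1Jfm/RjoJ; Lats2tm1.1Jfm/RjoJ, which carries floxed Lats1 and Lats2, and are titled wild type; whether Cre was present is not given. Tumours were started by hydrodynamic tail injection of SB11 transposase (1 µg), myc-NICD (20 µg), the active part of Notch, and myr-ha-Akt (4 µg), and grew for 8 weeks. The TAA control (2 libraries), TAA 48 h (2 libraries) and TAA 24 h (2 libraries, outside the difference) groups are CD-1 IGS mice, the treated ones given 1 intraperitoneal injection. The age label of every library is 8 weeks, but tumour mice were injected at that age. All libraries are labelled as Percoll-purified hepatocytes, but the TAA set is named livers in the series design, and that word is used here. The labels tie no library to its own animal. P-values here therefore reflect library-to-library spread, part of which may be technical.

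A liver lobule has zones: hepatocytes around the central vein, kept in that state by Wnt signals, make glutamine from ammonia and carry the P450 enzymes that turn TAA into its toxic form. Dying pericentral cells are replaced by division of surviving hepatocytes, which enter S phase and then mitosis while much of the metabolic programme is lowered. Genes for DNA synthesis are commonly E2F targets, and many mitosis genes carry a cell cycle homology region (CHR) bound by the MuvB complex with B-MYB and FOXM1.

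The promoters of some cell cycle genes are shown because the results below give genes for DNA synthesis and for mitosis beside each other. Each is the 150 bases before the RefSeq start in GRCm38.p6, 5′ to 3′ on the strand of the gene, for the 3 members of each list with the highest TAA 48 h level among those that hold the motif there, outside exons of their own gene. Capitals mark TTTGAA or its reverse complement TTCAAA in the mitosis genes and TTTNNCGC or GCGNNAAA in the replication genes.
Top2a (chr11:99024190-99024339, minus strand): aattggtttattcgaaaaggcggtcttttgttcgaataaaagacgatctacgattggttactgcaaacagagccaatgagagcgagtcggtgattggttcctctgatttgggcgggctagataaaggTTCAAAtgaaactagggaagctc
Mki67 (chr7:135716380-135716529, minus strand): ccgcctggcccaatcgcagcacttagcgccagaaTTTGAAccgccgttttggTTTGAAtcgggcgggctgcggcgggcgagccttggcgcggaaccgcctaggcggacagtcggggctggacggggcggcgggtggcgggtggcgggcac
Ect2 (chr3:27153879-27154028, minus strand): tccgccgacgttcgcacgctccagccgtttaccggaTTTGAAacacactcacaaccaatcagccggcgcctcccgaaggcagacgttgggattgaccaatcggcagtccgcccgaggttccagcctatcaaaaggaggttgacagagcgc
Mcm6 (chr1:128359706-128359855, minus strand): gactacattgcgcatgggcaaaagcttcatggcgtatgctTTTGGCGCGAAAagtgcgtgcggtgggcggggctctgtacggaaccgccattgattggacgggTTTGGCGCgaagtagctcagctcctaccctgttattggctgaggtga
Mcm5 (chr8:75109359-75109508, plus strand): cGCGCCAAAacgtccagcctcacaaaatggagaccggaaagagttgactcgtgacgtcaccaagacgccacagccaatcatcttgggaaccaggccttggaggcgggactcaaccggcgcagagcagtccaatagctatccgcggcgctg
Pola1 (chrX:93632156-93632305, minus strand): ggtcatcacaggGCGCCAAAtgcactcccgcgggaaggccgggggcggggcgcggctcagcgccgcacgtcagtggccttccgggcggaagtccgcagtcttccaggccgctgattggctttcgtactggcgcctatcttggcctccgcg
In the 300-base windows of the RefSeq table (250 before and 50 after the start), TTTGAA on either strand stood in 17 of 22 promoters of the mitosis list (20 genes) and in 3 of 25 of the replication list (21 genes), against 17.9% of all 32851 promoters. TTTNNCGC stood in 10 of 25 replication promoters and in 1 of 22 mitosis promoters, against 5.17% of all. On 1 strand the motifs cannot match from the same base, both were chosen with the results known, and a match describes letters only.

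Libraries held 9640845 to 18522324 counts. Levels are TMM-scaled CPM (gene counts relative to the library's total), changes are log2 ± SE, and adjusted p-values come from edgeR's quasi-likelihood test over all 12846 genes. Sex transcripts split the libraries: all 3 untreated libraries and peritumoral replicates 1 and 3 held the Y-linked Ddx3y at 58.5 to 74.6 CPM with Xist at 0.178 CPM or less, whereas peritumoral replicate 2 and all liver libraries had no Ddx3y count and Xist at 254 to 433 CPM. Stock, sex, sampling and control group therefore all differ between the experiments, and a difference between them cannot be told apart from these. Albumin lay between 45932 and 203948 CPM in all libraries. Summed biliary and progenitor markers were 138 to 157 CPM in untreated hepatocytes, 1499, 8424 and 1331 in peritumoral replicates 1 to 3, 175 and 201 in TAA controls and 418 and 583 at 48 h. Summed macrophage markers were 515 to 582, then 2122, 8904 and 3747, against 177 and 220, then 1549 and 1727. Both lists hold Spp1, which made up most of both sums in peritumoral replicate 2. The macrophage sum therefore does not show that macrophage RNA was highest in that library. Bulk libraries cannot tell more cells of a type from more RNA per cell.

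Of the genes tested, 3035 (23.6%) changed beside tumours, 2220 higher (17.3%) and 815 lower (6.34%), and 5762 (44.9%) changed after TAA, 3232 higher (25.2%) and 2530 lower (19.7%). The changes themselves differed for 1640 genes (12.8%), 764 with a higher and 876 with a lower value beside tumours. Most genes called in both settings moved the same way: 1712 did, 1570 of them higher (12.2%) and 142 lower (1.11%), and for 126 of these the size differed. All 206 genes called in both with opposite signs (1.6% of the genes tested) also had a called difference, 103 higher beside tumours and lower after TAA, and 103 the reverse (0.802% each). A further 302 genes (2.35%) moved beside tumours only, 154 higher (1.2%) and 148 lower (1.15%), and 941 (7.33%) after TAA only, 499 higher (3.88%) and 442 lower (3.44%). These classes were made by the tests and are described, not tested again. A call in one setting alone is no difference: 1117 genes were called beside tumours and not after TAA, and the difference held for 302 of them, as it did for 941 of the 3844 called after TAA and not beside tumours. With no scaling factors, the share of called differences that were higher beside tumours fell from 46.6% to 22.4%, and that of called changes that were higher rose from 73.1% to 92.3% beside tumours and from 56.1% to 88% after TAA.

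**Figure D1:**
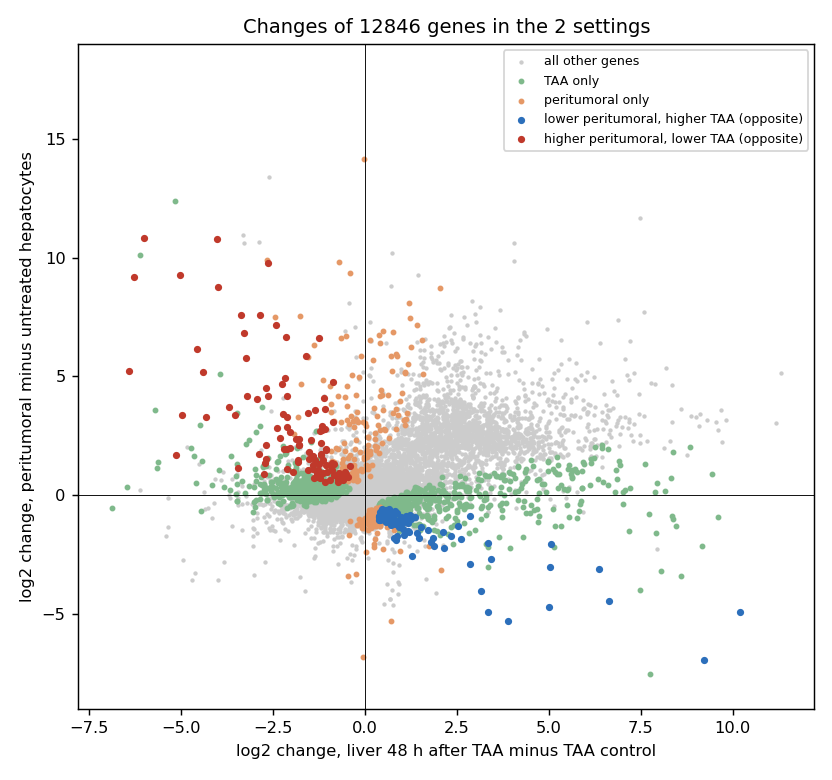
Log2 change in peritumoral hepatocytes (vertical axis) against log2 change in liver 48 h after TAA (horizontal axis), 1 point per gene, for 12846 genes. Most coloured points of the opposite classes (103 and 103 genes) lie in the upper left and lower right of the plot, while grey points spread along the upper right.

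The counts of opposite genes changed with whichever library was left out. Without either TAA 48 h library they fell to 16 or 19 genes (higher beside tumours, lower after TAA) and to 9 (the reverse), and without either TAA control to 45 and 48, and 26 and 27. Without untreated replicate 1 or 2 they were 35 and 30, and 17 in both cases. Leaving out untreated replicate 3 raised them to 161 and 257, and leaving out peritumoral replicate 3 lowered them to 58 and 25. Without peritumoral replicate 2 they were 96 and 64, and without replicate 1 94 and 70. The directions did not change: in each fit, all of the 206 opposite genes still tested kept the sign of both changes. These were 192 of 192 without either TAA 48 h library, where fewer genes passed the count filter (11693 and 11634). The fits share most libraries, and the genes were chosen by those signs. Of 105 genes named by rule with a called difference, 12 kept the call in every one of these 10 fits in which they were tested: Capg, Cyp2c37, Cyp2c50, Cyp2c54, Glul, Rhbg, Dhrs9, Lgals3, Ccr2, Cd68, Cyp2e1 and Cyp27a1. Of these 12, Capg, Dhrs9 and Ccr2 were tested in 8 fits, since they did not pass the count filter in the rest. The remaining genes were tested in all 10. Dhrs9 and Ccr2 passed the filter in livers only through both TAA 48 h libraries, in which they were high. They could therefore not be tried without either of these libraries, in the fits that lowered the counts most. The other 93 genes lost the call without at least 1 library. Gulo, Axin2, Lgr5, Nkd1, Rgn, Mybbp1a, Nhp2, Nop2, Mcm5, Mcm6, Pola1, Ect2 and Top2a, like those said below to be named after their values were seen, are outside that rule, and their single calls were not tried with a library left out.

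Levels of the control and treated groups are given as a description, since the difference is the sum of the gap between controls and the gap between treated groups, and genes chosen for it must show such gaps. Of the 103 genes higher beside tumours and lower after TAA, 96 were lower in all 3 untreated libraries than in both TAA controls (26.1% of all genes were), with a median of -1.82 on the log2 scale, and 71 were higher in all peritumoral than in both TAA 48 h libraries (23.1% of all genes). Of the 103 in the reverse class, 92 were higher in untreated hepatocytes than in TAA controls (28.3% of all genes), with a median of 1.06, and 91 were lower in peritumoral hepatocytes than at 48 h (24.7% of all genes). Of the 499 genes higher after TAA only, 399 stood higher in untreated hepatocytes than in TAA controls, and of the 442 lower after TAA only, 368 stood lower.

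**Figure D2:**
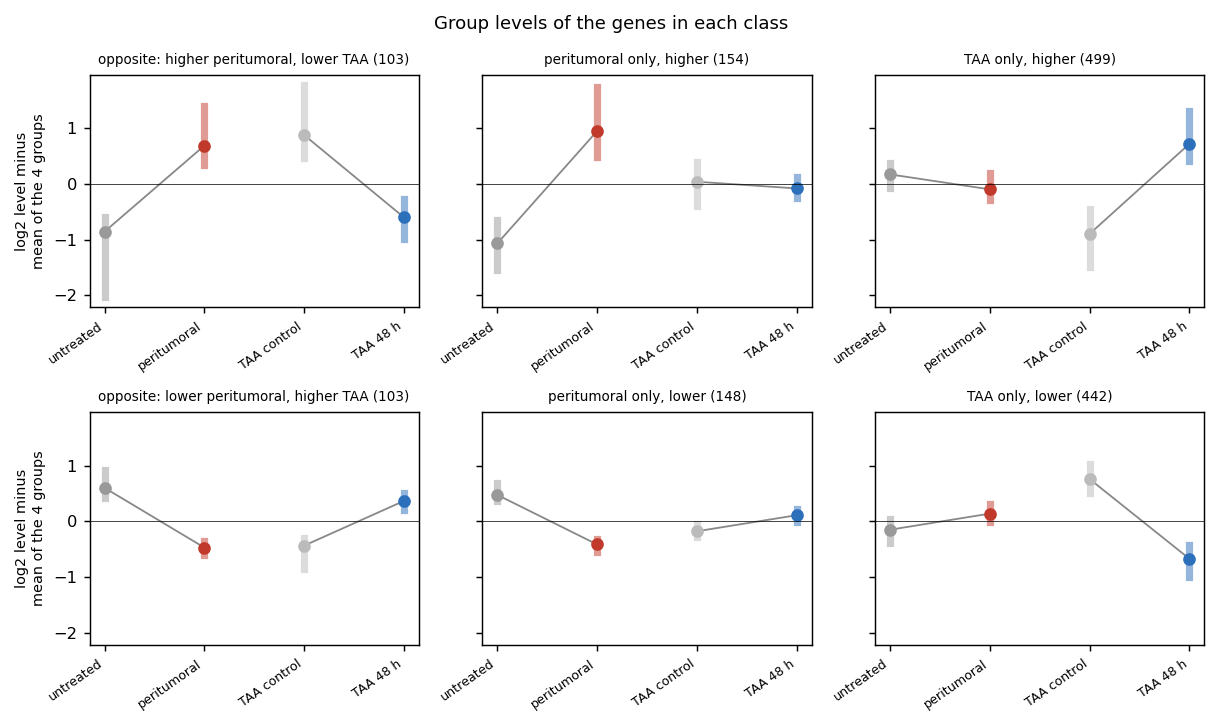
Median (point) and quartiles (bar) of group levels, as log2(CPM + 0.5) minus the mean of the 4 groups, over the genes of each class (number in brackets), with a line joining each control group to its treated group. In both opposite classes the 2 control groups sit on opposite sides of 0, a median of -1.82 and 1.06 apart on the log2 scale.

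Pericentral genes fell after TAA and, where they changed beside tumours, rose there. Of 23 members kept, 8 rose beside tumours (17.3% of all genes did) and none fell (6.34%). After TAA 18 fell (19.7%) and 1 rose (25.2%). The difference was higher beside tumours for 16 (background 5.95%) and lower for none, and 7 members moved in opposite directions. The median change was 0.52 beside tumours and -2.55 after TAA, against 0.0039 and 0.026 over all genes. The controls also differed: 13 of 23 members were lower in every untreated library than in both TAA controls (26.1% of all genes) and 0 higher (28.3%). Summed pericentral levels were 3205 to 4586 CPM in untreated and 7493 to 9595 in peritumoral hepatocytes. In livers they were 11728 and 14238 CPM in TAA controls and 1700 and 1576 at 48 h. Leaving out 1 library kept the called differences between 13 and 17, except without either TAA 48 h library (10 each time) and without TAA control replicate 2 (9).

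Glul, which makes glutamine from ammonia in the last rows of cells around the vein, stood at 63.0, 80.2 and 83.3 CPM in untreated and at 856, 622 and 764 in peritumoral hepatocytes. In livers it stood at 190 and 396 CPM in controls and at 70.4 and 64.3 at 48 h. Neither pair of groups overlapped, and the peritumoral libraries were the highest of the 10. Glul rose by 3.31 ± 0.25 (adjusted p = 0.0023) and fell by 2.12 ± 0.35 (adjusted p = 0.0065), a difference of 5.43 ± 0.45 (adjusted p = 0.0012) that stayed called with any of the 10 libraries left out. Rhbg, the ammonium transporter of the same cells, stood at 3.39, 3.13 and 3.77 CPM, then 11.8, 9.63 and 13.1, against 7.32 and 11.4, then 1.39 and 1.13, with a difference of 4.64 ± 0.39 (adjusted p = 0.0012). Rgn, regucalcin, rose by 1.14 ± 0.28 and fell by 3.45 ± 0.15.

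The pericentral Cyp2c enzymes, which oxidise drugs and fatty acids, followed the same course. Cyp2c50 stood at 40.9, 34.2 and 21.3 CPM in untreated and 319, 599 and 361 in peritumoral hepatocytes. In livers it went from 415 and 642 CPM to 51.3 and 29.9. Treated and control libraries were apart in both settings, and the treated group of one resembled the control group of the other. Its difference was 7.43 ± 0.61 (adjusted p = 0.0012). Cyp2c37 rose by 5.16 ± 0.64 and fell by 4.39 ± 0.45, a difference of 9.56 ± 1.00 (adjusted p = 0.0024), and Cyp2c54 rose by 3.39 ± 0.39 and fell by 3.53 ± 0.39, a difference of 6.92 ± 0.67 (adjusted p = 0.0018). These 3 calls held with any library left out. Cyp2c29 stood apart in untreated replicate 3, at 282 CPM against 41.3 and 34.4 in the others, and rose by 3.38 ± 0.98 (adjusted p = 0.047) to 522, 2112 and 1100 CPM. Cyp2c genes are near-identical copies, and how shared reads were counted is not stated, so the split of counts among them is uncertain.

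Other pericentral genes fell after TAA only. Cyp2e1, the main enzyme that activates TAA, went from 4221 and 6423 CPM to 93.3 and 116, a fall of 5.67 ± 0.33 (adjusted p = 0.00077), while beside tumours its change was 1.16 ± 0.46 (adjusted p = 0.11). The difference was 6.83 ± 0.71 (adjusted p = 0.0024). Cyp1a2, which clears caffeine and aromatic amines, had a difference of 4.60 ± 0.69. Cyp27a1, a sterol 27-hydroxylase of bile acid synthesis, had one of 4.20 ± 0.47 (adjusted p = 0.003). Gulo, the last step of vitamin C synthesis, changed by 0.04 ± 0.20 beside tumours and fell by 2.15 ± 0.23. The Wnt feedback genes Axin2 and Lgr5 fell after TAA, by 0.96 ± 0.26 and 1.34 ± 0.35, but their differences of 1.36 ± 0.53 and 1.75 ± 0.68 did not pass (adjusted p = 0.12 and 0.11). Nkd1, another Wnt feedback gene, rose in both settings, by 2.94 and 1.93.

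**Figure D3:**
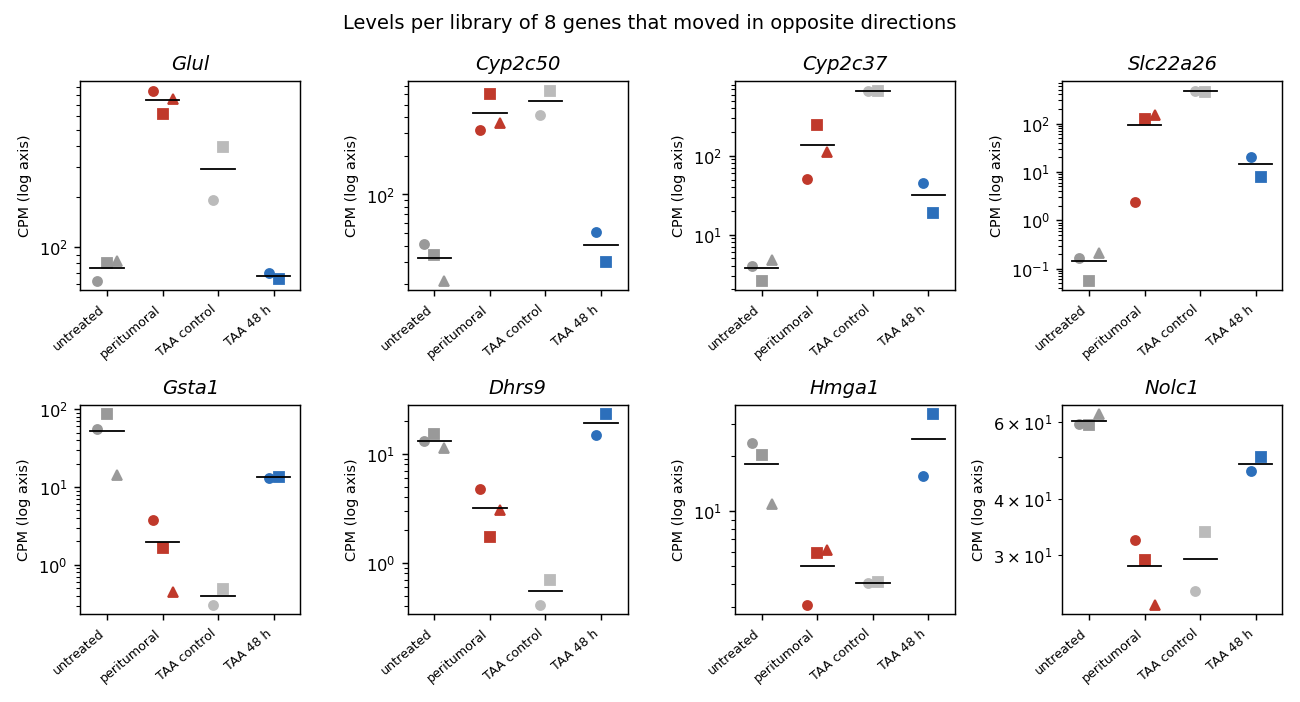
CPM (log axis, not starting at the same value in each panel) of 8 genes in each untreated, peritumoral, TAA control and TAA 48 h library; circles, squares and triangles are replicates 1, 2 and 3, and the line is the group mean. The upper genes rise beside tumours and fall after TAA and the lower genes do the reverse, with Slc22a26 at 2.37 CPM in peritumoral replicate 1 against 124 and 149 in the others.

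Genes that female mouse livers express above male ones held another 8 members of the class. Of 18 listed, 16 passed the count filter, but 7 did so without peritumoral replicate 2 or 3, so members entered through libraries in which they were high, and counts over them describe the list only. Slc22a26, an organic anion transporter gene that is not on that list, stood at 0.167, 0.0559 and 0.213 CPM in untreated hepatocytes, 2.37, 124 and 149 in peritumoral, 481 and 453 in TAA controls and 20.5 and 8.04 at 48 h. Its difference was 14.30 ± 2.16 (adjusted p = 0.011). Cyp2c69 stood at 0.829, 126 and 149 CPM in the peritumoral replicates and Cux2, a transcription factor of the female liver pattern, at 0.948, 25.5 and 35.6, against 0.0559 to 0.944 in untreated hepatocytes. Both were therefore high in replicate 2, which held Xist, and in replicate 3, which held Ddx3y and almost no Xist, and near the untreated level in replicate 1. Untreated hepatocytes came from libraries with Ddx3y, so sex moved with this contrast in replicate 2, and its part in the result was not tested. Without peritumoral replicate 2, when 7 members passed the count filter, the list had 1 opposite member and 5 called differences, without replicate 3, again with 7, it had 1 and 4, without untreated replicate 1, 2 or 3 it had 1 and 3, 0 and 1, and 1 and 12, and without a liver library it had at most 2 of each.

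Socs2, Cish, Prlr and Lifr, chosen after their values were seen and belonging to no list used here, also moved in opposite directions. Socs2 and Cish, cytokine signalling inhibitors that STAT5 induces, stood at 2.17 to 3.41 and 4.05 to 9.83 CPM in untreated hepatocytes. In peritumoral replicates 1 to 3 they stood at 26.9, 134 and 44.1, and at 30.7, 51.3 and 39.9. After TAA Socs2 went from 45.3 and 75.7 CPM to 11.8 and 13.3, and Cish from 107 and 36.0 to 25.5 and 13.3. All 3 peritumoral libraries were thus above untreated ones, replicate 1 included. The differences were 6.95 ± 0.90 (adjusted p = 0.0072) for Socs2 and 4.25 ± 0.77 (adjusted p = 0.018) for Cish. Prlr, the prolactin receptor, had a difference of 4.70 ± 0.66, and Lifr, the receptor for leukaemia inhibitory factor, one of 3.90 ± 0.44 (adjusted p = 0.0036), from levels of 254 to 318 CPM in untreated and 707 to 1446 in peritumoral hepatocytes.

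Some metabolic enzymes belonged to the same class. Prodh, which starts proline breakdown, rose from 46.5 to 104 CPM in untreated to 146 to 202 in peritumoral hepatocytes and fell from 186 and 121 CPM to 25.2 and 21.9, a difference of 4.07 ± 0.50 (adjusted p = 0.0053). Ehhadh, of peroxisomal fatty acid oxidation, rose by 2 ± 0.56 and fell by 2.04 ± 0.27. Me1, a malic enzyme that supplies NADPH, rose by 0.70 ± 0.20 and fell by 1.22 ± 0.23. Nt5e, an ectonucleotidase counted among YAP/TAZ targets, rose from 1.92 to 11.8 CPM to 49.3 to 122 and fell from 247 and 223 CPM to 126 and 96.2. Mme, the membrane peptidase neprilysin, stood at 22.4, 161 and 21.5 CPM in the peritumoral replicates, where replicate 2 was the library with the highest biliary sum, and its difference was 8.83 ± 1.58 (7.16 without that replicate). The difference of Prodh was lost (adjusted p = 0.052) without TAA 48 h replicate 2, and that of Me1 without either TAA 48 h library or TAA control replicate 1. Those of Ehhadh, Nt5e and Mme were lost without either TAA 48 h library or either TAA control, and those of Ehhadh and Nt5e also without untreated replicate 2.

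In the reverse direction stood genes of protein and ribosome making. Of 27 ribosome biogenesis genes, 10 fell beside tumours (6.34% of all genes did) and none rose (17.3%). After TAA 15 rose (25.2%) and none fell (19.7%). The difference was lower beside tumours for 17 (background 6.82%), with medians of -0.62 and 0.60, and Nhp2, Nop2, Rrp12, Nolc1 and Mybbp1a moved in opposite directions. Nolc1, a nucleolar chaperone of ribosome assembly, stood at 59.3, 58.9 and 62.4 CPM in untreated and 32.3, 29.2 and 23.1 in peritumoral hepatocytes, against 24.8 and 33.8 in TAA controls and 46.4 and 49.9 at 48 h. Untreated and 48 h libraries were the high ones, with no overlap in either setting. Nolc1 fell by 1.09 ± 0.17 and rose by 0.72 ± 0.18, a difference of -1.81 ± 0.26 (adjusted p = 0.01). Rrp12, a ribosome export factor, had a difference of -1.97 ± 0.35 (adjusted p = 0.017). Untreated replicates 1 and 2 were above replicate 3 for many of these genes, such as Mybbp1a at 151 and 146 against 78.2 CPM. With 1 library left out, the members lower beside tumours ran from 1 to 16. The list's called differences numbered 21 without peritumoral replicate 2 and 23 without untreated replicate 3. They numbered 7 and 8 without peritumoral replicate 1 or 3, 2 without untreated replicate 1 or 2, 3 without TAA control replicate 2 and 0 without another liver library.

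Proteasome subunits fell beside tumours in 17 of 31 cases (6.34% of all genes did) with none higher (17.3%). After TAA 3 fell (19.7%) and 1, Psmd8, rose (25.2%). Psmd8, of the regulatory lid, fell by 1.05 ± 0.22 and rose by 0.52 ± 0.11. The difference passed for Psmd8 and Psmd13 (median -0.51), a share near the background of 6.82%, and over the fits with 1 library left out it passed for 0 to 17 subunits, the highest count being without untreated replicate 3. Cad, which starts pyrimidine synthesis, and Srm, which makes spermidine, were named after their values were seen. Their differences were -2.73 ± 0.65 and -2.57 ± 0.57.

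Single genes of the reverse class covered detoxification, lipid storage and growth. Gsta1, a glutathione transferase, stood at 55.6, 85.8 and 14.2 CPM in untreated and 3.79, 1.63 and 0.455 in peritumoral hepatocytes, against 0.310 and 0.497, then 13 and 13.5 CPM in livers. Untreated hepatocytes were thus the highest group and TAA controls the lowest, and the difference was -9.74 ± 1.40 (adjusted p = 0.0096; 0.056 and 0.057 without TAA control replicate 1 or 2). Gsta1 has near-identical copies. Dhrs9, a retinol dehydrogenase, stood at 13.2, 15.2 and 11.4 CPM, then 4.74, 1.71 and 3.07, against 0.413 and 0.696, then 14.9 and 23.1. Its difference was -7.14 ± 0.66 (adjusted p = 0.0017), and ran from -7.58 to -6.77 in the 8 fits with a library left out in which it was tested. Cidec, which coats lipid droplets, stood at 25.6, 25.8 and 1.21 CPM in untreated hepatocytes, so replicate 3 lacked most of it, and at 0.341 to 0.592 beside tumours. It rose from 0.722 and 0.796 CPM to 14.5 and 8.46 after TAA, a difference of -9.19 ± 1.56 (adjusted p = 0.015; 0.075 and 0.074 without TAA control replicate 1 or 2). Gsta1, Dhrs9 and Cidec passed the count filter in livers only through both TAA 48 h libraries, in which they were high. They were therefore not tested without either of those libraries. Apoa4, an apolipoprotein, had a difference of -4.05 ± 0.79. Hmga1, a chromatin protein of dividing and fetal cells, fell by 1.85 ± 0.38 and rose by 2.61 ± 0.40. Igf2r, which removes IGF2, fell by 0.74 ± 0.17 and rose by 0.87 ± 0.18, and Tgfa, a hepatocyte mitogen named after its values were seen, fell by 1.5 ± 0.26 and rose by 1.17 ± 0.14.

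DNA replication genes rose after TAA, and mitosis genes rose in both settings. Of 27 replication genes, 24 rose after TAA (25.2% of all genes did) and 1 fell (19.7%). Beside tumours 1 (Pola1) rose (17.3%) and none fell (6.34%). For 17 the difference was called, all lower beside tumours (6.82% of all genes were), with medians of 0.26 and 3.30. Of 25 mitosis genes, 24 rose beside tumours (17.3% of all genes did) and all 25 after TAA (25.2%), with medians of 3.80 and 5.96. Most of the 25 passed the count filter in livers only with both TAA 48 h libraries, in which they were high. The count and median after TAA therefore describe the list only. Among the 25 the difference passed for Foxm1 alone. Ube2c, a mitosis gene outside the list, had a difference of -4.12 (adjusted p = 0.022), a call not kept with every library left out. At an unadjusted p under 0.05, the difference was lower beside tumours for 24 of 27 replication and 11 of 25 mitosis genes and higher for none, and the lists were not tested against each other. The median difference was -3.06 for replication and -2.24 for mitosis genes, against 0.00041 over all genes.

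Mcm2, a subunit of the replicative helicase, stood at 22.9, 36.2 and 7.18 CPM in untreated and 12, 18 and 13.3 in peritumoral hepatocytes. It rose from 2.37 and 1.59 CPM in TAA controls to 46.4 and 50.1 at 48 h, and stood at 49.5 and 22.9 at 24 h. The hepatocyte groups overlapped and the liver groups did not, and untreated hepatocytes were above TAA controls. Its changes were -0.61 ± 0.52 (adjusted p = 0.42) and 4.60 ± 0.24 (adjusted p = 0.00069), a difference of -5.21 ± 0.80 (adjusted p = 0.012). Mcm5 and Mcm6, whose promoters are printed above, rose only after TAA, by 5.52 ± 0.37 and 4.33 ± 0.24, with differences of -5.26 ± 1.04 and -4.59 ± 0.88. Ccne1, the cyclin of S phase entry, changed by -2.18 ± 0.72 (adjusted p = 0.07) and 5.15 ± 0.36, a difference of -7.34 ± 1.17 (adjusted p = 0.013). It passed the count filter in 8 of the 10 fits with 1 library left out.

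Mki67, a marker of dividing cells, stood at 0.889, 2.40 and 0.924 CPM in untreated and 26.0, 39.9 and 54.8 in peritumoral hepatocytes, and at 2.37 and 0.0995 in TAA controls and 179 and 82.2 at 48 h. At 24 h it stood at 9.53 and 7.83 CPM. Every treated library at 48 h or beside tumours was above every control library. Mki67 rose by 4.82 ± 0.51 and 6.72 ± 1.06, with a difference of -1.90 ± 1.14 (adjusted p = 0.27). Top2a, which untangles chromosomes, rose by 3.17 ± 0.64 and 6.45 ± 0.75, and the difference of -3.28 ± 1.09 did not pass (adjusted p = 0.075). Foxm1, a factor that activates mitosis genes, went from 0.853 to 1.00 CPM to 7.52, 9.91 and 14.2 beside tumours and from 0.413 and 0.497 to 39.1 and 23.9 CPM after TAA, a difference of -2.58 ± 0.51 (adjusted p = 0.023; 0.052 and 0.062 without untreated replicate 2 or 1, 0.087 and 0.077 without TAA control replicate 1 or 2).

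Replication genes stood higher in untreated hepatocytes than in TAA controls without overlap in 18 of 27 cases (28.3% of all genes), mitosis genes in 3 of 25. At the treated end, 24 of 27 replication and 23 of 25 mitosis genes were lower in every peritumoral library than in both TAA 48 h libraries (24.7% of all genes). The called differences of the replication list numbered 12, 21 and 16 without peritumoral replicate 1, 2 or 3 and 3, 8 and 23 without untreated replicate 1, 2 or 3, and at most 1 without a liver library. Without a TAA 48 h library, 10 of 10 tested changes of mitosis genes were still called in each setting. Part of the exons of Ccne2, Fen1 and Chaf1a is shared with a gene on the other strand, and no source here states the strand setting of the counting.

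**Figure D4:**
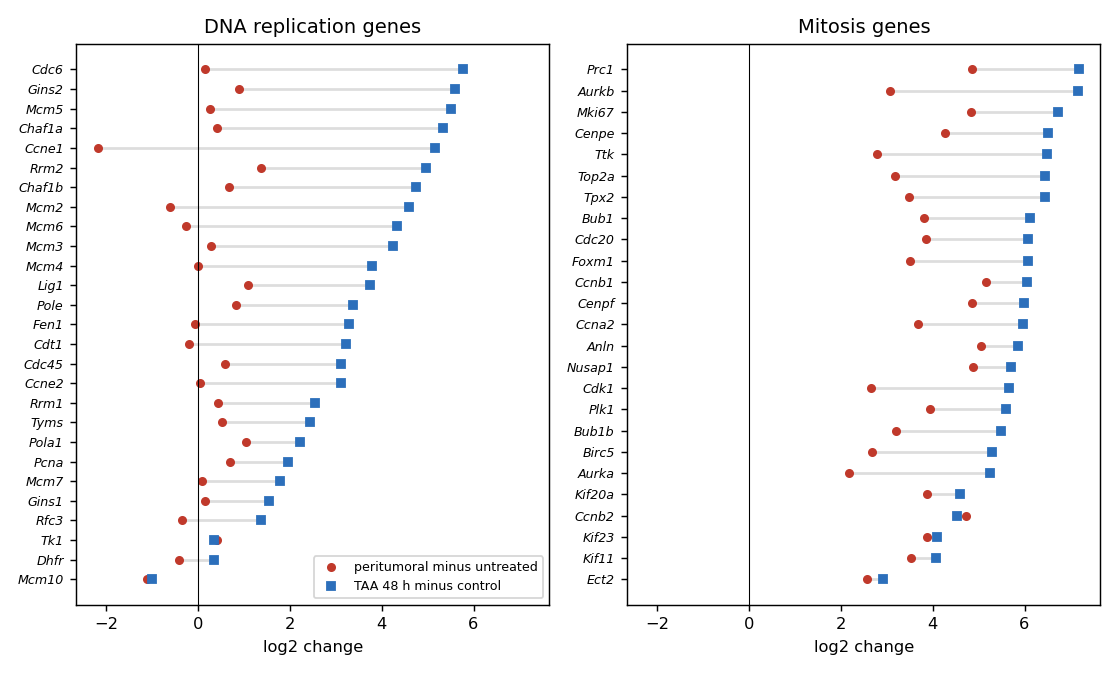
Log2 change of each DNA replication (left) and mitosis (right) gene in peritumoral minus untreated hepatocytes (circles) and in TAA 48 h minus TAA control livers (squares). Replication genes sit around 0 beside tumours (median 0.26) and around 3.30 after TAA, while mitosis genes lie above 2 in both.

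Other lists rose in more members after TAA than beside tumours. Of 30 actin and dedifferentiation genes, 25 rose after TAA (25.2% of all genes did) and 11 beside tumours (17.3%), and 13 differences were called, all lower beside tumours (6.82%). Lgals3, galectin-3, stood at 40.2, 36.5 and 16.9 CPM in untreated and 16.4, 45.0 and 41.4 in peritumoral hepatocytes, and rose from 1.03 and 1.19 CPM to 145 and 106 after TAA. Its difference was -6.67 ± 0.74 (adjusted p = 0.003) and was called with any library left out. Anxa2, a membrane-binding annexin, rose by 5.85 ± 0.16 after TAA and stood at 202, 170 and 35.9 CPM in untreated hepatocytes against 6.29 and 5.37 in TAA controls. Both genes were higher in every untreated library than in both TAA controls. Without untreated replicate 3 the list had 19 called differences and without peritumoral replicate 2 it had 18, against 5 and 9 without peritumoral replicate 1 or 3, 2 without untreated replicate 1 or 2, and 1 or 2 without a liver library. Of 19 p53 targets, 12 rose after TAA (25.2% of all genes) and 3 beside tumours (17.3%, so near the background), and 7 differences were lower (6.82%; 0 to 9 with 1 library left out), among them Mdm2, the p53 ubiquitin ligase (-1.39 ± 0.21, adjusted p = 0.011). Phlda3, an inhibitor of Akt, rose in both settings, by 2.19 ± 0.28 and 6.18 ± 0.51. Afp, the fetal serum protein, named after its values were seen, rose from 1.44 and 1.19 CPM to 474 and 1056 after TAA, against 0.835 to 2.55 CPM beside tumours and 1.99 to 13.4 in untreated hepatocytes. Uhrf1, which guides DNA methylation after replication, rose by 7.08 ± 0.25 after TAA and changed by 0.22 ± 0.91 beside tumours. Phlda3 and Uhrf1 passed the count filter in 8 of the 10 fits with 1 library left out.

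Metabolic lists fell in most members after TAA, and their differences passed for a minority. Of 27 amino acid breakdown enzymes, 24 fell after TAA (19.7% of all genes did) and 2 beside tumours (6.34%), and the difference was higher beside tumours for 6 (5.95%) and lower for 1 (6.82%). Hpd, of tyrosine breakdown, went from 2663 and 2466 CPM to 230 and 399 (a fall of 3.03 ± 0.31), with a change of 0.33 ± 0.45 beside tumours. Of 19 bile acid genes 15 fell after TAA, of 24 cholesterol synthesis genes 21 and of 20 fatty acid synthesis genes 17, while 2, 1 and 1 fell beside tumours, and 5, 4 and 5 differences were higher, with 1 bile acid difference lower. Their median changes beside tumours were -0.02, -0.40 and -0.43, against -2.22, -1.41 and -1.69 after TAA. The fatty acid oxidation list had medians of -0.64 and -0.99 and 3 of 24 differences higher, and the urea cycle list medians of -0.51 and -0.72 and 1 of 8. With 1 library left out the higher differences of bile acid, cholesterol and fatty acid synthesis genes ran from 1 to 12, 0 to 10 and 0 to 13, and that of the amino acid enzymes from 0 to 16. Thrsp, an activator of lipid synthesis, fell from 276 and 149 CPM to 10.2 and 7.26, a difference of 5.13 ± 0.73 (adjusted p = 0.0093). Oxidative phosphorylation subunits fell after TAA in 36 of 38 cases and in none beside tumours, yet no difference passed in the main edgeR fit. Their medians were -0.72 and -0.46, and 3 of 38 differences had an unadjusted p under 0.05. DESeq2 and limma-voom each called 1. Uqcrq and Sdhb also passed in the edgeR fits without peritumoral replicate 2 or untreated replicate 3. Hamp2, a hepcidin, went from 77.4 and 223 CPM to 1.13 and 2.19 after TAA and lay at 0.671 to 3.86 CPM in all 6 hepatocyte libraries. Its hepatocyte level was thus near the injured level in both groups, and its change beside tumours was 0.33 ± 0.60.

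**Figure D5:**
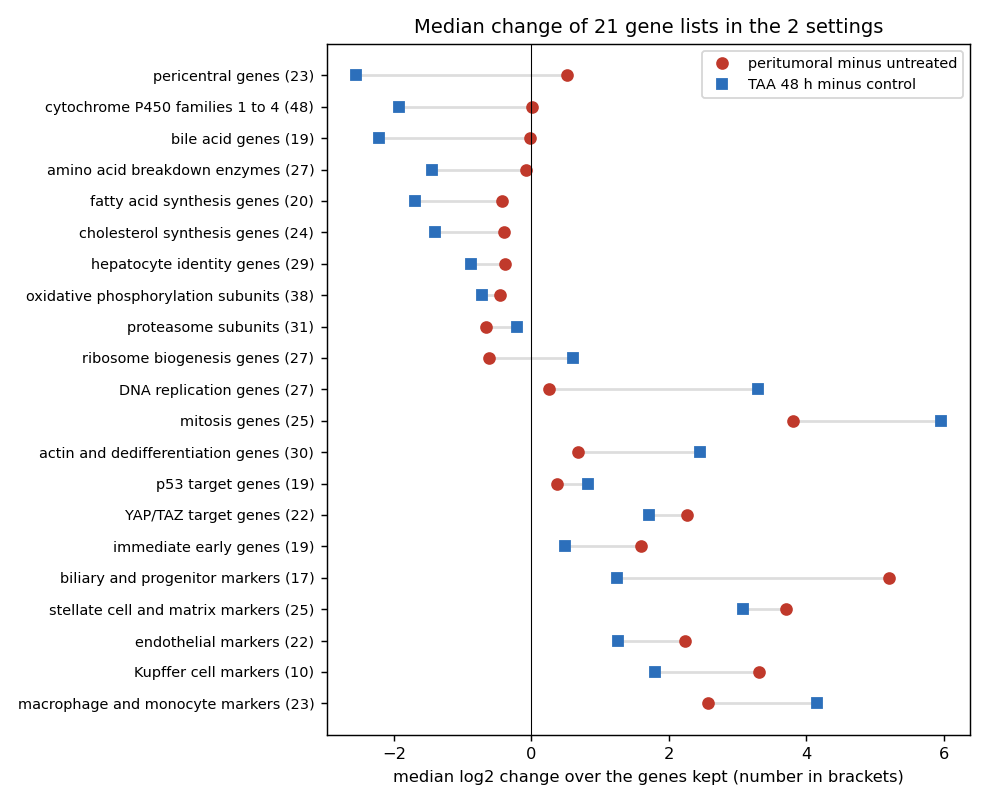
Median log2 change over the genes kept of 21 lists in peritumoral minus untreated hepatocytes (circles) and TAA 48 h minus TAA control livers (squares). The medians of pericentral (0.52 and -2.55) and ribosome biogenesis genes (-0.62 and 0.60) lie on opposite sides of 0.

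Genes that moved beside tumours only were led by epithelial genes that were highest in peritumoral replicate 2. Slc15a2, a peptide transporter, stood at 13.6, 151 and 9.96 CPM in the peritumoral replicates against 0 to 0.213 in untreated hepatocytes, and in livers at 1.24 and 9.85, then 2.87 and 5.50. Krt19, a bile duct keratin, stood at 18.9, 60.6 and 12.3 CPM beside tumours and had a difference of 4.36 ± 1.02 (adjusted p = 0.032; 3.32 and 0.018 without replicate 2). Of 17 biliary and progenitor markers kept (20 listed), 14 rose beside tumours (17.3% of all genes did) and 6 after TAA (25.2%), and 6 differences were higher (5.95%) and 1 lower (6.82%). Cldn4, the exception, rose only after TAA, by 5.87 ± 0.56. It passed the count filter in 8 of the 10 fits with 1 library left out. The summed biliary markers given above moved with these genes and their part was not tested. The 6 called as higher became 7 without peritumoral replicate 2, 8 without replicate 3, 3 without untreated replicate 3 and 0 without untreated replicate 1 or 2 or any liver library. Notch1, part of which was injected as myc-NICD, stood at 75.6, 340 and 78.3 CPM beside tumours and 17.9 to 22 in untreated hepatocytes, and its change after TAA was -0.01 ± 0.17. Its difference was 3.05 ± 0.83, and 1.90 without replicate 2. Reads of the injected sequence and of the gene cannot be told apart here.

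Meg3, an imprinted noncoding RNA, rose in all 3 peritumoral libraries alike, to 44.7, 32.7 and 25.6 CPM from 0.222 to 0.503, and stood between 0.825 and 4.37 CPM in the 4 liver libraries. Its difference was 5.98 ± 1.03 (adjusted p = 0.016; 0.064 and 0.079 without TAA 48 h replicate 1 or TAA control replicate 2). Of 19 immediate early genes, 16 rose beside tumours (17.3% of all genes did) and 9 after TAA (25.2%), and 4 differences were called, all higher beside tumours (5.95%). Ier2 stood at 115 to 132 CPM in untreated and 275, 299 and 327 in peritumoral hepatocytes, with livers at 267 and 206, then 163 and 225, and a difference of 1.54 ± 0.28 (adjusted p = 0.017). Jund had one of 1.23 ± 0.27. The 4 calls became 0 to 2 without peritumoral replicate 1 or 3, untreated replicate 1 or 2 or any liver library.

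Among genes lower beside tumours only, S100g, a calcium-binding protein, fell from 22.9, 19.7 and 10.2 CPM to 0.178, 0.159 and 0.114, a fall of 6.80 ± 0.45 (adjusted p = 0.0023), and lay between 0.103 and 1.39 CPM in livers. Rpl29, a ribosomal protein gene with many processed copies, went from 60.4, 61.6 and 31.4 CPM to 9.65, 9.95 and 9.73 and lay at 14.5 to 16.1 in the 4 liver libraries, a difference of -2.40 ± 0.38 (adjusted p = 0.012). For both genes the untreated libraries were the ones set apart from all others. Mtmr7, a lipid phosphatase, fell by 2.25 ± 0.46, and Asns, which makes asparagine, by 3.17 ± 0.68. Of the class of 148, 130 changed by less than 0.5 (log2) after TAA, and of the 154 higher beside tumours only, 87 did.

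Of 22 YAP/TAZ targets kept (24 listed), 15 rose beside tumours (17.3% of all genes did) and 12 after TAA (25.2%), 10 of them in both, while Nt5e moved in opposite directions. The difference was higher for 5 (background 5.95%) and lower for 1 (6.82%), Ctgf (0 to 5 and 0 to 3 with 1 library left out). Ctgf, a secreted matrix protein, stood at 8.89, 10.6 and 5.75 CPM in untreated and 46.1, 59.8 and 50 in peritumoral hepatocytes, and rose from 3.71 and 2.59 CPM to 74.7 and 76.6 after TAA. It rose in both settings without overlap, by 2.62 ± 0.26 and 4.58 ± 0.22, a difference of -1.96 ± 0.37 (adjusted p = 0.021; 0.053 to 0.092 without a liver library and 0.055 without untreated replicate 1). Cyr61, its close relative, rose by 2.09 ± 0.36 beside tumours and changed by 0.59 ± 0.28 after TAA, and the difference of 1.5 ± 0.54 did not pass (adjusted p = 0.093). Amotl2, which holds YAP in the cytoplasm, had a difference of 1.30 ± 0.29 (adjusted p = 0.028). For Yap1 the difference was -0.58 ± 0.28 and for Wwtr1, which encodes TAZ, -0.18 ± 0.27 (adjusted p = 0.18 and 0.67). Those of Lats1 and Lats2, the floxed genes of the hepatocyte line, were -0.21 ± 0.19 and 0.02 ± 0.27. Exon overlap on the other strand touches 23.2% of Ctgf.

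Markers of cells other than hepatocytes rose in both settings, although all libraries are labelled as Percoll-purified hepatocytes. Of 25 stellate and matrix markers, 22 rose beside tumours (17.3% of all genes did) and 24 after TAA (25.2%), and 2 differences passed, both higher, a share near the background of 5.95%. Of 23 macrophage and monocyte markers, 14 and 22 rose (17.3% and 25.2% of all genes did), with 6 differences lower (6.82%; 1 to 9 with 1 library left out) and 1 (5.95%), Spp1, higher. Ccr2, the receptor of recruited monocytes, stood at 2.70 to 3.02 CPM in untreated and 2.78, 3.62 and 5.29 in peritumoral hepatocytes, against 0.206 and 0.398, then 9.55 and 8.67 in livers (difference -4.42 ± 0.52, adjusted p = 0.0041). Spp1, osteopontin, also on the biliary and progenitor list, stood at 958, 7054 and 706 CPM beside tumours. Its difference was 4.74 ± 1.29, and 2.89 without replicate 2. The sinusoidal scavenger receptor gene Stab2 rose beside tumours, from 30.7 to 45.0 CPM to 153, 148 and 225, and had a difference of 1.73 ± 0.34.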

How the data were processed

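RNA-seq was made from mouse hepatocytes and livers with a strand-marking library kit, per the labels' protocols. The authors deposited raw counts per gene. STAR, DESeq2, mm10 and GRCm38 stand in the submitters' processing notes, but neither an annotation nor a strand option for the counting step is named there. Of 41128 gene IDs, 40254 (97.9%) were found in GENCODE M21. A deposited RPM table was not used.

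The counts of 10 libraries were scaled by TMM (factors 0.756 to 1.36) and analysed in R 4.3.3 with edgeR 4.0.16, its quasi-likelihood test and Benjamini-Hochberg adjustment at 0.05. Each change was fitted within its experiment and the difference in 1 fit of all 10 libraries. Fitted changes use a prior count of 0.125, and bounds a floor of 3 counts over a group. The members and gene lists were chosen with earlier results of these data known.

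Genes named by rule were the 8 largest differences in each opposite direction, the 5 largest in each class of 1 setting that changed by under 0.5 in the other, the 3 largest in each class of unequal change, the 2 smallest p-values of each of 46 lists, and a fixed set of pathway genes. The genes taken from classes had a mean of 10 CPM or more in the highest group, at least 4 counts in every group and no overlap where called. None of them had a predicted or clone name. These limits were not applied to genes taken from the lists or the fixed set. The scripts were tested on simulated data with 200 changed genes per draw. The test of the difference found 0.333% of 2-fold and 12% of 4-fold differences, and 0% of calls were false. The simulation gave all genes of an experiment the same spread and changed far fewer genes than were called here. These rates, that of false calls included, therefore need not hold for the real libraries. A difference that did not pass is not shown to be absent. The alternatives were other scalings, filters, thresholds, sample sets, DESeq2 1.42.0, limma 3.58.1 with and without voom, a replicate block and leaving out each library.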

Additional observations from a re-analysis of the deposited data

How the results depend on the processing

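Leaving out the scaling factors shifted the median of all genes to 0.653 after TAA and to -0.434 for the difference. With no factors, 6938 genes were higher and 942 lower after TAA, 185 lower beside tumours, 421 differences higher and 1458 lower, and 134 genes moved beside tumours only. At an adjusted p under 0.01 these counts were 1891 and 1290 after TAA, 1101 higher and 46 lower beside tumours, 49 and 42 for the difference, 11 beside tumours only, 53 after TAA only, and 15 and 7 in opposite directions. DESeq2 gave 1639 lower beside tumours, 1428 and 1416 differences and 757 beside tumours only. The filter of 50 counts gave 1430 higher and 446 lower beside tumours, the 2-fold minimum 1270 lower after TAA, 269 lower beside tumours and 34 opposite genes lower beside tumours, and limma-voom 1428 after TAA only and 61 opposite genes lower beside tumours. With 1 fit for all contrasts, 1524 were lower after TAA, 1719 lower beside tumours and 519 beside tumours only. Testing the difference from the separate fits gave 1600 and 1692, with 585 beside tumours only and 1783 after TAA only. The cause of these moves was not tested.

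Leaving out 1 library gave 1490 to 3453 genes higher and 1144 to 2638 lower after TAA, 1256 to 2224 higher and 66 to 1232 lower beside tumours, 36 to 1349 and 22 to 1794 differences, 8 to 756 beside tumours only, 22 to 1818 after TAA only, and 16 to 161 and 9 to 257 opposite genes. Where an arm kept 1 library, it was assumed to vary like the others.

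Same-numbered libraries did not consistently deviate together (r of -0.230, 0.178 and 0.119 for peritumoral and untreated replicates 1 to 3, and 0.0341 in livers). With so few libraries per group these values cannot show whether the numbers pair the samples, and the labels do not say. The fit with the replicate block gave 329 genes lower beside tumours, 496 and 407 differences, 102 beside tumours only, 559 after TAA only and 63 opposite genes lower beside tumours.

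Uncalled differences near 0 changed sign. Hnf4a (0.04) gave -0.44 with no factors, -0.0336 with limma, -0.0122 with voom, -0.0328 with the block, and -0.30 to 0.39 with 1 library left out. Lats2 (0.02) gave -0.00672 with upper-quartile factors, -0.41 with none, -0.00349 with limma, -0.0265 with no filter, -0.00355 with the block, and -0.24 to 0.30 with 1 library left out. With 1 library left out, Cdkn1a ranged from -0.24 to 0.16, Akt1 from -0.0506 (without peritumoral replicate 2) to 0.61 and Ighm from -0.28 (without TAA control replicate 1) to 3.62. Slc30a1 gave -0.0984 with no factors. SEs of the 6 genes over 10000 CPM, albumin among them, were a median 1.98 times those of edgeR's legacy fit (0.989 for the other 12840), so no test is given for albumin.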
